A study of Mus musculus with 8 samples.

Results

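The aminoacyl-tRNA synthetase genes were taken from a table of 17167 genes as the rows whose gene name equals one of 36 listed symbols, and all 36 were found. Of these, 20 encode the enzymes of the cytosol and 16, with symbols that end in 2, encode the enzymes of the mitochondrion. The samples were cultured undifferentiated spermatogonia (Aundiff), the germ cell pool of the adult testis that includes the spermatogonial stem cells. Cultures came from 4 individual wild-type mice, were selected with an antibody to CD9, and were grown on inactivated mouse embryonic fibroblasts. They were depleted of these feeders on plastic, kept on Geltrex, a basement membrane matrix, for 4 days and treated for 20 h with AGX51 at 80 µM or with DMSO as vehicle. AGX51 is a small molecule that inhibits all members of the ID family, which are proteins that hold bHLH transcription factors away from DNA. Each of the 4 cultures gave 1 AGX51 library and 1 vehicle library, so 4 AGX51 and 4 vehicle libraries were compared. The labels give the strain as CBA/J and the study's methods as C57BL/6J, and the treatment label gives the dose in mM where the series design gives µM.

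An aminoacyl-tRNA synthetase joins 1 kind of amino acid to the tRNAs that read its codons. Nuclear genes encode a set of these enzymes for cytosolic translation and another set for the translation of the few proteins encoded by mitochondrial DNA. In the mouse, *Gars* and *Kars* make both the cytosolic and the mitochondrial enzyme for glycine and lysine. Many genes of the cytosolic set are known as targets of ATF4, the transcription factor of the amino acid and unfolded protein stress response, which binds letters close to TGATGCAA near target genes. Several cytosolic enzymes sit together in a multi-synthetase complex, held by the scaffold proteins AIMP1, AIMP2 and AIMP3.

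The libraries held 4303318 to 8441399 counts with AGX51 and 8330176 to 9586105 counts with vehicle, a difference whose exact two-sided permutation test gave p = 0.0571 (the smallest p that 4 against 4 libraries allow is 0.0286). The AGX51 total was below the vehicle total in 4 of 4 cultures, and the exact permutation test within cultures, added after seeing the data, gave p = 0.125, the smallest that 4 cultures allow. Counts were scaled by TMM and are given as CPM, which is the scaled count relative to the library total. Calls required both a fold change above 1.5 (0.58 on the log2 scale) and an adjusted p under 0.05, from edgeR's quasi-likelihood test with Benjamini-Hochberg adjustment over all 14428 tested genes. Of the tested genes 18.5% were called, 8.57% higher and 9.93% lower, and 30.5% passed the adjusted p at any fold. Of the 36 synthetase genes 8 were called and 19 passed the adjusted p. All 36 synthetase genes passed the filter on low counts. Of 16 markers of undifferentiated spermatogonia all had counts, with *Ddx4* at 235 CPM with AGX51 and 266 CPM with vehicle. Of the 15 tested, 0 were called higher and 5 lower, among them *Dazl* at 348 CPM with AGX51 and 813 CPM with vehicle. Markers of fibroblasts, the feeder cell type, were also present. Of 25 such markers 11 were called higher and 2 lower. Their mean level on the log2 scale was higher with AGX51 in each culture, by 0.34, 0.37, 0.36 and 0.58 in cultures 1 to 4. The exact two-sided permutation test gave p = 0.143 over unpaired libraries and p = 0.125 within cultures, a test added after seeing the data in which 4 cultures allow no smaller p.

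The cytosolic set moved up with AGX51 as far as its members were called. Of 20 cytosolic genes 6 were called higher (8.57% of all tested genes were) and 0 were called lower (9.93% of all tested genes were). The 6 were *Aars*, *Yars*, *Cars*, *Sars*, *Iars* and *Nars*. At the adjusted p alone 12 of 20 were higher and 0 lower, where 15.2% and 15.3% of all tested genes were. At an unadjusted p under 0.05, 12 cytosolic genes were higher and 1 (*Dars*) was lower, where 20.9% and 21.1% of all tested genes were. DESeq2 and limma-voom also called 0 lower with the fold threshold, but at the adjusted p alone *Dars* was lower in both (DESeq2, adjusted p = 0.0492, and limma-voom, adjusted p = 0.0494). The median log2 fold change of the 20 genes was 0.40, beside a median of 0.00063 over all tested genes. Between libraries without overlap, 12 of the 20 lay above vehicle and 1 below, where 14.8% and 15.5% of all tested genes did. The summed level of the 20 genes was 3931 to 4472 CPM in AGX51 libraries and 2976 to 3211 CPM in vehicle libraries.

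*Aars*, the alanine enzyme, changed most. It stood at 198, 171, 199.7 and 213 CPM in AGX51 replicates 1 to 4 and at 62.7, 69.7, 74.2 and 73.1 CPM in vehicle replicates 1 to 4. Every AGX51 library held more than 2 times the level of any vehicle library, and the fitted rise was 2.79-fold (log2 fold change 1.48, standard error 0.10, edgeR, adjusted p = 1.57e-06). *Yars*, the tyrosine enzyme, was at 86.0, 90.5, 90.8 and 97.2 CPM with AGX51 and at 41.6, 46.0, 40.8 and 40.6 CPM with vehicle. Its groups did not overlap and its spread within groups was small, and it rose 2.16-fold (log2 fold change 1.11, standard error 0.09, edgeR, adjusted p = 6.3e-06). *Cars*, the cysteine enzyme, was at 169.6, 141, 149.9 and 173 CPM with AGX51 and at 72.3, 76.2, 75.3 and 74.3 CPM with vehicle. Its 4 vehicle libraries lay within 4 CPM of each other and all AGX51 libraries were well above them, a rise of 2.13-fold (log2 fold change 1.09, standard error 0.09, edgeR, adjusted p = 9.99e-06). Of the 20 genes only these 3 passed a fold threshold of 2. *Aars* shares 1326 exon bases at its 3′ end with *Exosc6* on the same strand, which was not analysed here.

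*Sars*, the serine enzyme, was at 329.9, 326, 368 and 364 CPM with AGX51 and at 212, 173, 175 and 216 CPM with vehicle. Vehicle replicates 1 and 4 were higher than 2 and 3, but no vehicle library reached the lowest AGX51 library, and the gene rose 1.79-fold (log2 fold change 0.84, standard error 0.11, edgeR, adjusted p = 0.000141). *Iars*, the isoleucine enzyme and a part of the multi-synthetase complex, was at 199.7, 166, 194 and 176 CPM with AGX51 and at 112, 114, 111 and 104 CPM with vehicle. The groups did not overlap, and the rise was 1.67-fold (log2 fold change 0.74, standard error 0.09, edgeR, adjusted p = 0.000117). *Nars*, the asparagine enzyme, was at 430.5, 480.2, 560.5 and 647 CPM with AGX51 and at 305, 269.9, 296 and 431 CPM with vehicle. It was the 1 called cytosolic gene whose groups overlapped, since vehicle replicate 4 stood level with AGX51 replicate 1. Within each culture the AGX51 library was still the higher one, and the gene rose 1.63-fold (log2 fold change 0.70, standard error 0.16, edgeR, adjusted p = 0.00552). Culture 4 also had the highest fibroblast marker level of both groups, and with that level as a covariate the log2 fold change of *Nars* was 0.42 (edgeR, adjusted p = 0.0221), short of the fold threshold. The other 5 genes kept their calls with the covariate, and all 6 were called with culture as a block and without both libraries of culture 4.

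**Figure D1:**
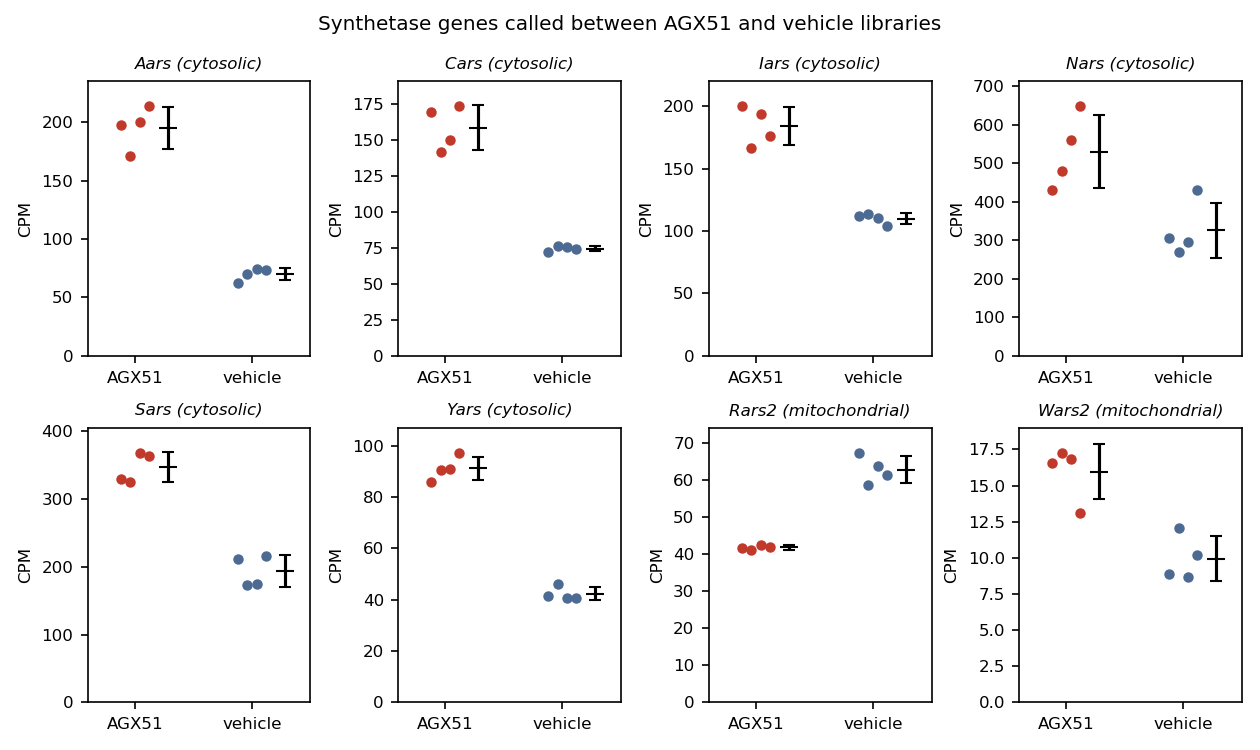
CPM (TMM-scaled, linear axis from 0) of the 8 called synthetase genes, with a point for each of 4 AGX51 (red) and 4 vehicle (blue) libraries and a black bar for the mean ± SD. The AGX51 points lie above the vehicle points in *Aars*, *Cars*, *Iars*, *Sars*, *Yars* and *Wars2*, below them in *Rars2*, and overlap with vehicle replicate 4 in *Nars*.

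A further 6 cytosolic genes passed the adjusted p but not the fold threshold, all with positive fold changes. *Gars*, which serves both compartments, was nearest to it. Its levels were 348, 364, 350.2 and 405 CPM with AGX51 and 238, 277, 226 and 265 CPM with vehicle, so the groups did not overlap (log2 fold change 0.55, standard error 0.10, edgeR, adjusted p = 0.00176). It was called at 0.61 (log2 fold change) without vehicle replicate 2 and at 0.59 without AGX51 replicate 1. *Mars*, the methionine enzyme, was at 201, 191, 218 and 184 CPM with AGX51 and at 141, 143, 135 and 134 CPM with vehicle (log2 fold change 0.52, standard error 0.09, edgeR, adjusted p = 0.00096). All AGX51 libraries of *Mars* lay above all vehicle libraries. The 3′ end of *Mars* shares 68 exon bases with the 3′ end of *Ddit3*, the gene of the stress factor CHOP, which lies on the opposite strand and was at 349 CPM with AGX51 and 36.2 CPM with vehicle. The strand setting of the counting is not given in the sources used here, and the part of this overlap in the *Mars* counts was not tested.

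*Rars*, the arginine enzyme, was at 337, 347, 391.8 and 448 CPM with AGX51 and at 296, 272, 268 and 283 CPM with vehicle (log2 fold change 0.44, standard error 0.11, edgeR, adjusted p = 0.00841). *Lars*, the leucine enzyme, was at 153, 159, 149 and 166 CPM with AGX51 and at 122, 90.1, 114 and 146 CPM with vehicle (log2 fold change 0.41, standard error 0.13, edgeR, adjusted p = 0.0265). Neither gene's groups overlapped, although vehicle replicate 4 of *Lars* came within 4 CPM of AGX51 replicate 3. *Tars*, the threonine enzyme, was at 188, 177, 175 and 213 CPM with AGX51 and at 147, 146, 133 and 147 CPM with vehicle (log2 fold change 0.40, standard error 0.10, edgeR, adjusted p = 0.00774). *Wars*, the tryptophan enzyme, was at 57.1, 53.6, 48.8 and 62.6 CPM with AGX51 and at 37.3, 42.8, 45.0 and 44.0 CPM with vehicle (log2 fold change 0.39, standard error 0.11, edgeR, adjusted p = 0.0147). In both, every AGX51 library exceeded every vehicle library.

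The other 8 cytosolic genes did not pass the adjusted p, with log2 fold changes between -0.31 and 0.20. *Eprs*, the fused enzyme for glutamate and proline, was at 526, 527, 562 and 517 CPM with AGX51 and at 473, 457, 452 and 478 CPM with vehicle (log2 fold change 0.20, standard error 0.09, edgeR, adjusted p = 0.124). Its groups did not overlap, but the gap between them was narrow. *Dars*, the aspartate enzyme, was at 228, 174, 228 and 204 CPM with AGX51 and at 295, 238, 255 and 242 CPM with vehicle (log2 fold change -0.31, standard error 0.11, edgeR, adjusted p = 0.058). It was the 1 cytosolic gene whose AGX51 libraries all lay below its vehicle libraries, and with culture as a block its adjusted p was 0.00795 at a log2 fold change of -0.31, still short of the fold threshold. The remaining 6 had overlapping groups. *Kars* (lysine), *Qars* (glutamine), *Hars* (histidine) and *Farsa* (the catalytic subunit for phenylalanine) had log2 fold changes of 0.19, 0.12, 0.12 and 0.11. *Vars* (valine) and *Farsb* (the other phenylalanine subunit) had log2 fold changes of -0.02 and -0.15, and both changed sign in some alternative fits. Both subunits of the phenylalanine enzyme were thus without a call, with adjusted p values from edgeR of 0.47 for *Farsa* and 0.465 for *Farsb*.

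**Figure D2:**
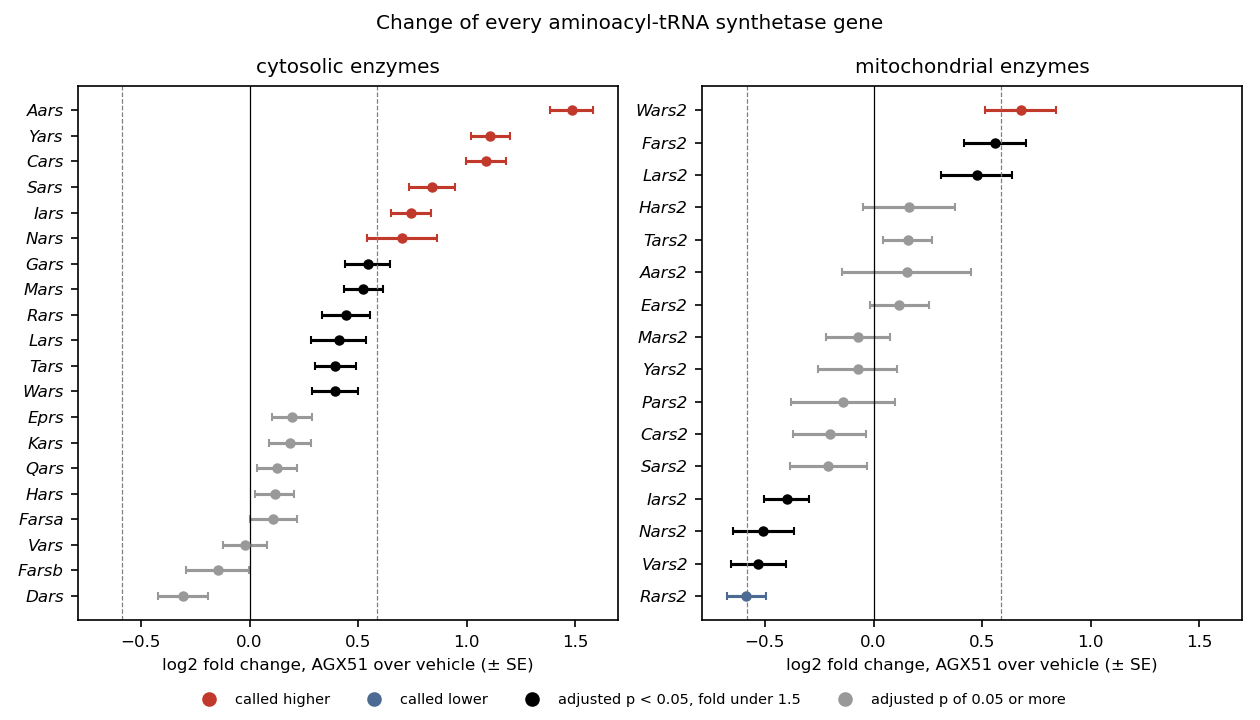
Log2 fold change of AGX51 over vehicle with its standard error for 20 cytosolic and 16 mitochondrial synthetase genes, with dashed lines at a fold of 1.5 in either direction. Of the cytosolic genes 6 lie past the upper line as called (red) and none past the lower line, while the mitochondrial genes spread to both sides with *Wars2* called higher and *Rars2* called lower (blue).

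Called genes were found both inside and outside the multi-synthetase complex. Of 8 cytosolic genes of the complex (*Dars*, *Eprs*, *Iars*, *Kars*, *Lars*, *Mars*, *Qars* and *Rars*) 1 was called higher, and of 12 outside it 5 were, where 8.57% of all tested genes were. The medians of the log2 fold change were 0.30 for the 8 genes and 0.47 for the 12. Synthetases fall into 2 unrelated structural classes. Of 9 cytosolic genes of class I 3 were called higher, with a median log2 fold change of 0.44, and of 10 genes of class II 3 were, with a median of 0.29. *Eprs* joins a domain of each class and stands outside this count. Neither difference was tested.

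Promoter sequences were compared because many cytosolic synthetase genes are known ATF4 targets. Windows of 300 bases, from 250 before to 50 after the RefSeq gene start on GRCm38.p6, were at hand for 27 of the 36 genes, 13 cytosolic and 14 mitochondrial. The letters TGATGNAA, the core of the ATF4 element, were searched on both strands. They were found in 5 of 13 cytosolic genes and in 0 of 14 mitochondrial genes, while 4.51% of 27025 genes with such windows hold them. The 5 were *Aars*, *Iars* and *Yars*, which were called higher, and *Gars* and *Tars*, which passed the adjusted p alone. With the stricter letters TGATGCAA, which 1.03% of genes hold, 4 of the 5 remained and *Gars* dropped out. *Sars*, called higher with a window at hand, has neither. *Mars*, which passed the adjusted p alone and has a window at hand, also has neither. *Cars*, *Nars*, *Hars*, *Lars*, *Rars*, *Vars*, *Wars*, *Hars2* and *Pars2* were not analysed here. A match of letters describes the sequence and does not show binding. The 5 windows that hold the letters are printed 5′ to 3′ on the strand of the gene, with the match in capitals.
Aars (chr8:111033592-111033891, + strand): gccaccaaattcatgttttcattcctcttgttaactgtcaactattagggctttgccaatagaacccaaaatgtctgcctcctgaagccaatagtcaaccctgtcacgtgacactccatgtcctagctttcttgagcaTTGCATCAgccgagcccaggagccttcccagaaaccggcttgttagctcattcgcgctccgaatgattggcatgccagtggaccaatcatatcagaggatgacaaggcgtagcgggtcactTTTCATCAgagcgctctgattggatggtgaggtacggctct
Gars (chr6:55037751-55038050, + strand): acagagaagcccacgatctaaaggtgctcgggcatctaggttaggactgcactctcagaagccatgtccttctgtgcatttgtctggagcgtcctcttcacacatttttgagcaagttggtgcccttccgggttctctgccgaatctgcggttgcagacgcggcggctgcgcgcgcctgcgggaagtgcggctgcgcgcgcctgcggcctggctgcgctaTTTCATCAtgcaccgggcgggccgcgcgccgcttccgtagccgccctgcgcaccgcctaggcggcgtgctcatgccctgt
Iars (chr13:49681880-49682179, + strand): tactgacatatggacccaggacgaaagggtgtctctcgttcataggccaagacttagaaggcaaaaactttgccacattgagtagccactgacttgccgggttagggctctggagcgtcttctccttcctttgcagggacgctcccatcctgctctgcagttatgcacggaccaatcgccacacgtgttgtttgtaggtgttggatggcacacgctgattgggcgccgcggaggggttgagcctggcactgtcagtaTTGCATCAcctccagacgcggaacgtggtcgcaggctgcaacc
Tars (chr15:11399609-11399908, - strand): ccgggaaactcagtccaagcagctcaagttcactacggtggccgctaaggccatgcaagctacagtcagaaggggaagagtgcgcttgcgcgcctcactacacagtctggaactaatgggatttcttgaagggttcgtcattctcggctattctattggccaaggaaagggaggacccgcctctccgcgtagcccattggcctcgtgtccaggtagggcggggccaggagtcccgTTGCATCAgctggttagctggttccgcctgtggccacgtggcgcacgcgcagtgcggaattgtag
Yars (chr4:129189653-129189952, + strand): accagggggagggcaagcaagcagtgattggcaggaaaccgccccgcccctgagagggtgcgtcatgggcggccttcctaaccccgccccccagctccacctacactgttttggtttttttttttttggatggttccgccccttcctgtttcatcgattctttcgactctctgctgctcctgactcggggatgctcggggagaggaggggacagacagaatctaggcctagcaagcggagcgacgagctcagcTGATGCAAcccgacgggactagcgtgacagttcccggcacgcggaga
In *Aars* the letters stand 2 times, with their first bases at -112 and 9 when the start base is counted as 0. The first base of the match lies at -30 in *Gars*, at 7 in *Iars*, at -15 in *Tars* and at 3 in *Yars*. In *Yars* the match reads TGATGCAA on the strand of the gene, and in the other 4 genes it lies on the opposite strand and is seen in print as TTGCATCA or TTTCATCA. All 6 matches lie within 112 bases of the start.

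The mitochondrial set showed no common direction. Of 16 genes 1 was called higher (8.57% of all tested genes were) and 1 was called lower (9.93% of all tested genes were). At the adjusted p alone 3 were higher and 4 were lower, where 15.2% and 15.3% of all tested genes were. The median log2 fold change was -0.07, and 7 of the 16 values were above 0. The summed level was 419 to 499 CPM in AGX51 libraries and 429 to 495 CPM in vehicle libraries, so the ranges overlapped almost fully. Between libraries without overlap, 2 genes lay above vehicle and 4 below, where 14.8% and 15.5% of all tested genes did.

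*Wars2*, the mitochondrial tryptophan enzyme, was at 16.5, 17.3, 16.9 and 13.1 CPM with AGX51 and at 8.87, 12.1, 8.67 and 10.2 CPM with vehicle. All AGX51 libraries were above the highest vehicle library, and it rose 1.60-fold (log2 fold change 0.68, standard error 0.16, edgeR, adjusted p = 0.00743). *Fars2*, the mitochondrial phenylalanine enzyme, was at 115, 110.0, 105 and 82.0 CPM with AGX51 and at 79.9, 81.4, 64.5 and 53.8 CPM with vehicle, and missed the fold threshold by a small margin (log2 fold change 0.56, standard error 0.14, edgeR, adjusted p = 0.00999). Its lowest AGX51 library only just exceeded its highest vehicle library. It was called at a log2 fold change of 0.63 without vehicle replicate 1, at 0.66 without vehicle replicate 2 or AGX51 replicate 4, at 0.61 at equal depth, and at 0.84 with the fibroblast level as a covariate. *Lars2*, the mitochondrial leucine enzyme, was at 26.2, 20.8, 30.8 and 35.2 CPM with AGX51 and at 23.8, 21.1, 19.3 and 17.7 CPM with vehicle (log2 fold change 0.48, standard error 0.16, edgeR, adjusted p = 0.0421). AGX51 replicate 2 of *Lars2* lay among the vehicle libraries, and without it the gene was called at a log2 fold change of 0.61. *Fars2* shares 115 exon bases with *Lyrm4* and 501 with *Nrn1*, both on the opposite strand. *Lyrm4* was itself called higher (log2 fold change 0.63, edgeR, adjusted p = 0.0135). *Nrn1*, whose exons cover the 3′ end of *Fars2*, was at 1.80 CPM with AGX51 and 2.40 CPM with vehicle. The part of these overlaps in the *Fars2* counts was not tested.

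In the other direction, *Rars2*, the mitochondrial arginine enzyme, was at 41.7, 41.2, 42.7 and 42.1 CPM with AGX51 and at 67.4, 58.8, 63.9 and 61.4 CPM with vehicle. Its AGX51 libraries lay within 2 CPM of each other and below all vehicle libraries (log2 fold change -0.59, standard error 0.09, edgeR, adjusted p = 0.000428). This fold change of a called gene stood on the threshold itself. The call was lost in 5 of the 8 fits that left out a single library (vehicle replicates 1 and 3 and AGX51 replicates 1, 2 and 4, log2 fold changes between -0.55 and -0.58), and also by limma-voom (-0.58), DESeq2 (-0.58) and RLE scaling (-0.58), and with no filter, equal depth or the fibroblast covariate (-0.57 each), while the adjusted p stayed at 0.00292 or lower in all of these. *Vars2*, the mitochondrial valine enzyme, was at 16.5, 15.7, 17.6 and 18.6 CPM with AGX51 and at 27.7, 24.5, 23.9 and 23.2 CPM with vehicle (log2 fold change -0.53, standard error 0.13, edgeR, adjusted p = 0.00657). *Nars2*, the mitochondrial asparagine enzyme, was at 36.8, 23.0, 29.0 and 28.6 CPM with AGX51 and at 48.2, 38.0, 41.4 and 40.0 CPM with vehicle (log2 fold change -0.51, standard error 0.14, edgeR, adjusted p = 0.0158). Neither gene's groups overlapped, and *Nars2* was called lower at -0.61 without AGX51 replicate 1. *Iars2*, the mitochondrial isoleucine enzyme, was at 53.8, 51.3, 44.6 and 48.7 CPM with AGX51 and at 69.5, 66.8, 56.1 and 69.1 CPM with vehicle (log2 fold change -0.40, standard error 0.10, edgeR, adjusted p = 0.0113). Its AGX51 libraries were all below its vehicle libraries. *Iars2* shares 2034 exon bases with *Rab3gap2* on the opposite strand, which had a log2 fold change of 0.14. *Nars2* shares 284 with *C230038L03Rik* on the opposite strand (log2 fold change -0.61, edgeR, adjusted p = 0.115). *Vars2* shares 465 with *Gm20483* on the opposite strand, which was not analysed here. The part of these overlaps in the counts was not tested.

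The remaining 9 mitochondrial genes did not pass the adjusted p and all had overlapping groups. Their log2 fold changes lay between -0.21 (*Sars2*, serine) and 0.16 (*Hars2*, histidine). *Cars2*, *Pars2*, *Yars2* and *Mars2*, for cysteine, proline, tyrosine and methionine, had values of -0.20, -0.14, -0.07 and -0.07. *Ears2*, *Aars2* and *Tars2*, for glutamate, alanine and threonine, had values of 0.12, 0.15 and 0.16. *Aars2* was counted thinly, at 1.86 CPM with AGX51 and 1.70 CPM with vehicle, and its log2 fold change had a standard error of 0.30.

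Cytosolic and mitochondrial genes were also set side by side by amino acid. The log2 ratio of the cytosolic to the mitochondrial CPM was taken within each library for 17 pairs, in which *Fars2* and *Eprs* each stand 2 times. In 9 pairs all AGX51 ratios exceeded all vehicle ratios, in 1 pair all were below, and in 7 the groups overlapped. In 10 pairs the ratio was higher with AGX51 in all 4 cultures. As single genes, 14.8% of all tested genes lay above vehicle without overlap, 15.5% lay below, and 27.1% were higher in all 4 cultures. No such share was computed for ratios of 2 genes, so it is not known how far the counts of pairs depart from it. No test was run on the ratios, and members of a pair differ in length and depth, so only the shift between groups is read. For alanine the mean ratio *Aars* over *Aars2* was 6.38 ± 0.15 with AGX51 and 5.0 ± 0.13 with vehicle (SD, n = 4), a shift of 1.38 on the log2 scale. For arginine the ratio *Rars* over *Rars2* was 3.16 ± 0.17 with AGX51 and 2.15 ± 0.067 with vehicle, a shift of 1.01, although neither change alone reached a fold of 2. In asparagine and isoleucine, too, the partners had fold changes of opposite sign, with shifts of 1.23 for *Nars* over *Nars2* and 1.13 for *Iars* over *Iars2*. The shifts for cysteine, tyrosine and serine were 1.28, 1.20 and 1.05.

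The pairs for phenylalanine and tryptophan went the other way. *Farsa* over *Fars2* was -0.52 ± 0.092 with AGX51 and -0.069 ± 0.18 with vehicle (SD, n = 4), the 1 pair in which all AGX51 ratios were below. *Wars* over *Wars2* had a shift of -0.27 with overlapping groups, and both genes had positive fold changes. *Farsb* over *Fars2* had a shift of -0.74, also with overlapping groups. Leucine and histidine hardly shifted, at -0.0091 and 0.016. With a pseudocount of 0 or 2 CPM in place of 0.5, the counts were again 9 pairs above, 1 below and 7 overlapping.

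**Figure D3:**
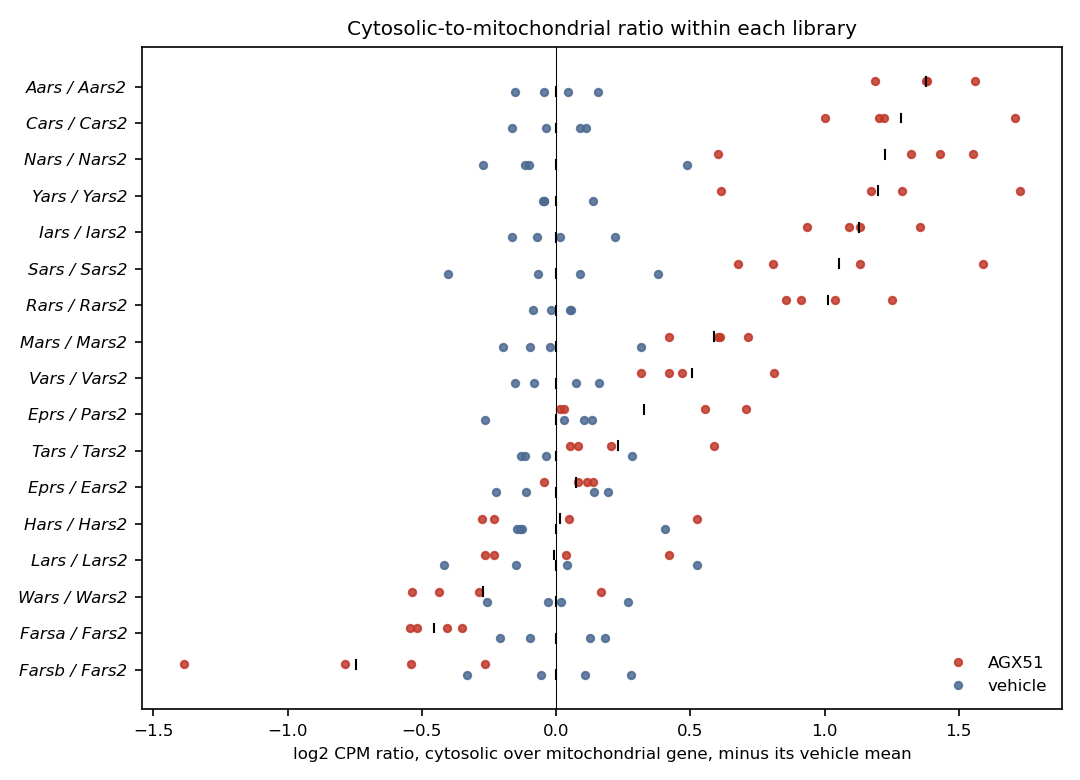
Log2 ratio of the cytosolic to the mitochondrial gene's CPM for 17 pairs, each minus its mean in vehicle libraries, with a point for each AGX51 (red) and vehicle (blue) library and a black tick for the group mean. The AGX51 points of 9 pairs, from *Aars* over *Aars2* down to *Vars* over *Vars2*, lie to the right of all vehicle points, and those of *Farsa* over *Fars2* lie to the left.

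Genes that work beside the synthetases were read in the same fit, and those named here passed the adjusted p or belong to the complex scaffold. None of those named passed the fold threshold. Of the scaffolds of the multi-synthetase complex, the log2 fold change was 0.36 for *Aimp2* (edgeR, adjusted p = 0.00888), 0.14 for *Aimp1* (adjusted p = 0.259) and 0.06 for *Eef1e1*, which encodes AIMP3 (adjusted p = 0.69). *Aimp2* shares 487 exon bases with *Eif2ak1* on the opposite strand. The log2 fold change of *Mtfmt*, which formylates the mitochondrial initiator methionyl-tRNA, was 0.56 (adjusted p = 0.00136). It was called at 0.63 without vehicle replicate 1, at 0.62 without AGX51 replicate 4 and at 0.69 with the fibroblast level as a covariate. *Qrsl1*, a subunit of the enzyme that makes mitochondrial glutaminyl-tRNA by amidation, had 0.45 (adjusted p = 0.0487), while the D-aminoacyl-tRNA deacylase gene *Dtd1* had -0.31 (adjusted p = 0.031) and *Pstk*, a kinase of selenocysteine synthesis, had -0.34 (adjusted p = 0.0318). *Pstk* shares 4652 exon bases, 58.8% of its own, with *Ikzf5* on the opposite strand. The log2 fold change of *Ikzf5* was 0.42 (edgeR, adjusted p = 0.00693), and the part of this overlap in the *Pstk* counts was not tested.

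Genes of the stress pathway that is known to act on many cytosolic synthetase genes were also read, as mRNA. *Atf4* was at 189.6, 193, 198 and 228 CPM with AGX51 and at 54.4, 59.8, 58.0 and 61.2 CPM with vehicle, and its groups lay far apart (log2 fold change 1.79, standard error 0.10, edgeR, adjusted p = 3.79e-07). Of 21 listed ATF4 and stress genes 16 were called higher and 0 lower (8.57% and 9.93% of all tested genes were), a list chosen with results of these data known. Of the 4 kinases that phosphorylate eIF2 and so start this response, 0 were called by edgeR, and at an unadjusted p under 0.05 0 were higher and 2 lower, where 20.9% and 21.1% of all tested genes were. *Eif2ak4*, which encodes GCN2, the kinase that senses uncharged tRNA, stood at -0.48 on the log2 scale (edgeR, adjusted p = 0.00583), and its AGX51 libraries lay below its vehicle libraries. These are mRNA levels, and the activity of the kinases was not measured.

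Marker lists of other kinds were read in the same libraries. The mean log2 CPM of the fibroblast markers was 6.01 to 6.92 in AGX51 libraries and 5.67 to 6.34 in vehicle libraries, and their summed level was 5085 to 10300 CPM and 3576 to 5813 CPM in these groups. The summed level of 16 spermatogonial markers was 1216 to 1511 CPM with AGX51 and 1889 to 2285 CPM with vehicle, and of 15 tested 5 were called lower and 0 higher (9.93% and 8.57% of all tested genes were). At the adjusted p alone 7 were lower and 1 higher, where 15.3% and 15.2% of all tested genes were. Endothelial markers summed to 4.25 to 5.61 CPM with AGX51 and 8.73 to 13.3 CPM with vehicle, without overlap. Of 4 such markers 2 were tested and 1, *Kdr*, was called lower (mean 0.99 CPM with AGX51 and 5.73 CPM with vehicle). *Pecam1*, *Cdh5* and *Tek* had overlapping groups, and the mean of *Tek* was higher with AGX51. Spermatid markers summed to 11.5 to 20.1 CPM with AGX51 and 28.5 to 37.0 CPM with vehicle, also without overlap. Of 5 such markers only *Tnp1* and *Ldhc* were among the 17167 listed genes, and both were called lower. Most of this sum was *Tnp1* (mean 13.9 CPM with AGX51 and 28.2 CPM with vehicle). Of all tested genes 9.93% were called lower. Sertoli, Leydig and macrophage markers had overlapping sums. Only 4 of 6 Sertoli, 1 of 5 Leydig and 2 of 5 macrophage markers were among the listed genes, and all of these were tested. The levels of markers that are not listed are not known. In each list 1 gene was called higher (*Clu*, *Star* and *Cd68*), where 8.57% of all tested genes were. In bulk libraries fewer cells of a type and less RNA per cell cannot be told apart. With the fibroblast level as a covariate 5 cytosolic genes were called higher and 0 lower, and the median log2 fold change of the cytosolic set was 0.31. Of all genes in that fit 1232 were called higher and 1352 lower. The part of the spermatogonial and other markers in the synthetase results was not tested. At equal depth in all libraries 6 cytosolic genes were called higher, where 982 of all genes in that fit were. The mean log2 CPM of the 20 cytosolic genes was 7.32 to 7.47 with AGX51 and 6.94 to 7.0 with vehicle, higher in each culture, and that of the 16 mitochondrial genes was 4.23 to 4.42 with AGX51 and 4.27 to 4.40 with vehicle.

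**Figure D4:**
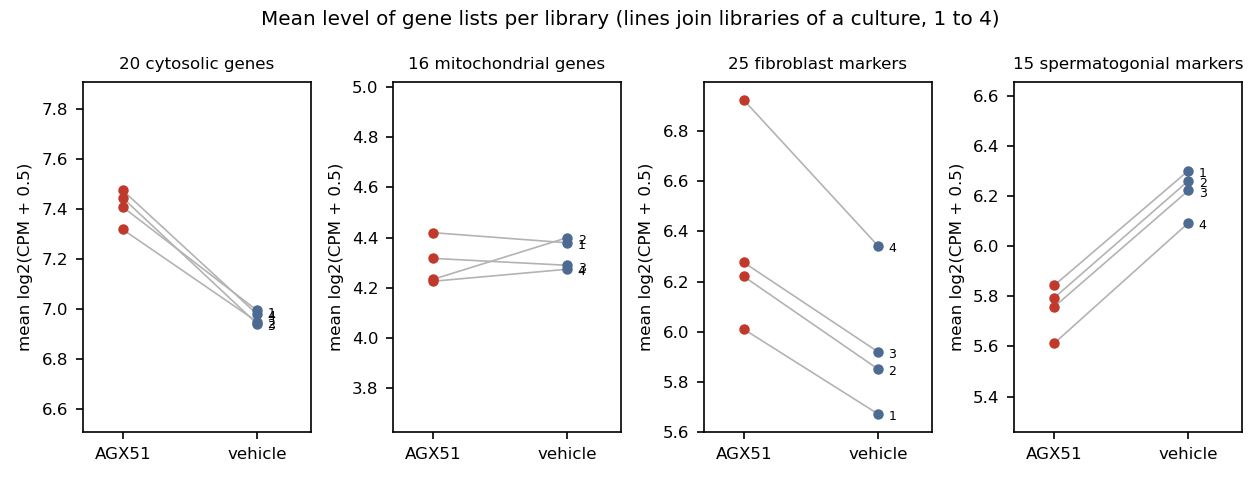
Mean log2(CPM + 0.5) of 20 cytosolic and 16 mitochondrial synthetase genes, 25 fibroblast markers and 15 tested spermatogonial markers in each AGX51 (red) and vehicle (blue) library, with lines that join the libraries of a culture and the same span on every axis. The cytosolic set is higher with AGX51 in all 4 cultures and its groups do not overlap, while the mitochondrial set moves little and in both directions.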

How the data were processed

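Libraries were made from poly(A)-primed RNA by template switching and tagmentation. The raw count values per gene were made by the authors with the RNAsik pipeline; of tools, the submitters' processing notes list featureCounts, STAR, Salmon, limma and edgeR with no version, and the build GRCm38. The deposited CPM columns were scaled by the authors to the library total of the listed genes, and they were not used. The log2 fold change, average expression, p-value and FDR columns hold the authors' own limma-voom comparison and were not used. Gene positions are those of GENCODE M21 (GRCm38).

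Counts were analysed with R 4.3.3 and edgeR 4.0.16: low counts were removed by filterByExpr (at least 10 counts, and 15 in total), leaving 14428 genes, libraries were scaled by TMM, and AGX51 was compared with vehicle by the quasi-likelihood test. Standard errors are the log2 fold change divided by the root of F. Ratios used a pseudocount of 0.5 CPM. Scripts were tested on simulated data. Members and lists were chosen with earlier results of these data known. A gene of the partner list is not reported here, so counts of partners cover the other 16 and do not describe the whole list. Full values are given for called members, members past the adjusted p, and the extremes of each set. Vehicle and AGX51 libraries of a number share a culture letter in the labels; after group means were removed they correlated at 0.12 to 0.47, and libraries of different cultures at -0.30 to 0.11. Replicates differed beyond sampling noise (chi-square over degrees of freedom, 6.25 to 19.9), so each library counted as 1 replicate. Alternatives were other scalings, filters and fold thresholds, DESeq2 1.42.0, limma-voom (limma 3.58.1), a culture block, equal depth, a fibroblast covariate and left-out libraries.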

Additional observations from a re-analysis of the deposited data

Results flagged for a closer look

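Among 72 groups of 4 libraries (36 genes in AGX51 and in vehicle), 3 held a library that stood apart by Dixon's criterion, where chance gives about 1 in 20. AGX51 replicate 2, the library with the fewest counts, held 83.0 CPM of *Vars* against 68.8 to 70.7 CPM in the other AGX51 libraries. Vehicle replicate 3 held 133 CPM of *Tars* against 146 to 147 CPM in the other vehicle libraries. The same library held 2.09 CPM of *Aars2* against 1.53 to 1.62 CPM.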

How the results depend on the processing

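The 20 cytosolic genes gave 6 higher and 0 lower calls with culture as a replicate block, and the 16 mitochondrial genes 1 and 1. Over all tested genes the block gave 1394 higher and 1627 lower calls, where the main fit gave 1236 and 1432. The block changed no call of the 36 genes. Without a fold threshold 4401 of all tested genes, 12 cytosolic genes higher, 3 mitochondrial genes higher, 4 mitochondrial genes lower and 5 of the 16 partners counted were called. At a fold above 2 these counts were 1112, 3, 0, 0 and 0. Mitochondrial genes called higher were 2 at equal depth and with the fibroblast covariate, and 1 to 2 with single libraries left out. Over all genes 982 were called higher and 1053 lower at equal depth, and 1232 and 1352 with the covariate. Mitochondrial genes called lower were 0 with RLE scaling, no filter, DESeq2, limma-voom, equal depth and the covariate, 2 with library totals as the only scaling and without culture 4, and 0 to 1 with single libraries left out. Partners called were 2 with the covariate and 0 to 1 with single libraries left out. The cytosolic median was 0.33 with library totals and 0.31 with the covariate. With library totals 952 calls were upward and 1752 downward (35.2% upward, where TMM gave 46.3%), and with upper quartile scaling 1034 and 1679 (38.1%). The difference in total counts was -2980440 to -1601080 with single libraries left out, past p = 0.05 without AGX51 replicate 4 (exact permutation p = 0.0286). Signs turned only in genes without a call. At equal depth log2 fold changes were 0.054 for *Vars*, -0.031 for *Hars2* and 0.022 for *Sars2*. With the covariate they were 0.051 for *Vars*, -0.010 for *Aars2*, -0.044 for *Hars2*, 0.012 for *Pars2*, 0.063 for *Sars2* and 0.16 for *Yars2*, and without culture 4 -0.055 for *Aars2* and 0.063 for *Yars2*. With single libraries left out they were -0.22 to 0.015 for *Farsb*, -0.076 to 0.049 for *Vars*, -0.011 to 0.28 for *Aars2*, -0.14 to 0.0051 for *Mars2* and -0.26 to 0.070 for *Yars2*. The cause of these shifts was not tested. *Vars2* was called lower at -0.61 with library totals and without culture 4. The adjusted p was above 0.05 in some alternative for *Lars*, *Rars*, *Wars*, *Iars2*, *Lars2* and *Nars2*. It was under 0.05 in some alternative for 5 genes that did not pass: *Dars*, *Eprs* (DESeq2), *Kars* (without AGX51 replicate 2), and *Farsa* and *Tars2* (covariate). Genes near 2 CPM such as *Aars2* are limited by depth.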

Other observations

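The letters CAGGTG and CAGCTG, which are among those bound by the E-proteins that ID proteins hold back, were also searched on both strands of the promoter windows. CAGGTG stood in 0 of 13 cytosolic and in 4 of 14 mitochondrial genes (*Fars2*, *Lars2*, *Tars2* and *Wars2*), where 22.6% of all genes with windows hold it. CAGCTG stood in 2 of 13 cytosolic genes (*Tars* and *Yars*) and in 2 of 14 mitochondrial genes (*Mars2* and *Yars2*), where 18.3% of all genes hold it. No test was run on these counts.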
